A study of Homo sapiens with 2 samples.

Results

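Hs578T is a human cell line grown from a breast carcinosarcoma, a tumour with both epithelial and connective tissue features, and it is counted among the triple-negative lines with a fibroblast-like form. It was profiled here by droplet single-cell RNA sequencing among 6 breast cancer lines. Its cells were the barcodes with suffix 5, in which the multiplexing oligo CMO305 was the highest oligo in all 2288. A barcode was kept with at least 1000 unique molecular identifiers (UMIs) in genes, 500 genes, at most 20% of UMIs in mitochondrial genes and CMO305 at 80% or more of its oligo UMIs. That left 1733 Hs578T cells, 75.7% of the 2288 and part of 17605 barcodes in all. The same rule, with their own oligos, kept 2474 HCC38, 2170 MDA-MB-436, 2231 BT-474, 2840 MDA-MB-231 and 3418 MDA-MB-453 cells.

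Each line was grown untreated as 1 culture, the Hs578T cells at passage 4, and stained with its own oligo. Hs578T, HCC38 and MDA-MB-436 were pooled and captured together, and the other pool held BT-474, MDA-MB-231 and MDA-MB-453, with 15000 cells loaded per pool. The labels give no key from oligo to line, so the names rest on marker genes and on the pools, and the name MDA-MB-436 rests on elimination within its pool. Since no line was repeated, no test between lines was possible, all intervals cover counting error only, and a difference from the 3 lines of the other capture cannot be told apart from a difference between captures.

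A Hs578T cell had a median of 38173 UMIs, 6488 genes and 5.88% mitochondrial UMIs, and the members held 72.1 M UMIs in all, against 68.9 M to 91.9 M in the other lines. The filters removed 299 of the 2288 barcodes for mitochondrial share, 26 for few genes, 7 for few UMIs (groups that overlap) and 254 more for oligo purity alone. Just inside and just outside the purity limit lay barcodes with 80.03% and 79.88% CMO305. CMO305 stained less than the other oligos, with a median of 4466 UMIs per kept cell, against 7132.5 to 10000 for the others. The oligos of the capture mates made up 4.19% (MDA-MB-436) and 3.73% (HCC38) of the oligo UMIs in Hs578T cells. Within each capture every barcode sequence stood under a single suffix, so no member could share its sequence there, and this says nothing about mixed droplets. Of the members 3 shared their barcode sequence with a cell of the other capture.

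Fibroblasts build the connective tissue matrix. They secrete fibrillar collagens, cross-link them with lysyl oxidases, grip them through integrins and pull on them with actin and myosin, most strongly in the contractile state called the myofibroblast. Carcinoma cells can switch on parts of this programme and switch off epithelial adhesion under transcription factors of the SNAI, TWIST, ZEB and PRRX families, a change called the epithelial-mesenchymal transition.

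The name Hs578T rests on the lead of these barcodes in marker genes, so the 6 markers of the line are no separate evidence for it. All 6 were highest in Hs578T cells. THY1, a surface glycoprotein of fibroblasts, had 811 CPM (UMIs of the gene per 1 M UMIs of the line) in Hs578T cells, against 14.8 CPM in HCC38, 12.8 CPM in MDA-MB-436 and 0 UMIs in each line of the other capture, which allows at most 0.0367 to 0.0435 CPM there. PRRX1, a homeobox factor of mesenchyme, had 208 CPM, against 47.8 CPM in MDA-MB-436 and at most 5.41 CPM in the other 4 lines. TWIST1, a factor of the same transition, separated the lines least, with 72.6 CPM in Hs578T cells, 48.5 CPM in BT-474 and 42.6 CPM in MDA-MB-436. Cell by cell, after thinning every cell to 10000 UMIs (1711 of the 1733 were deep enough), 30.2% of Hs578T cells had a UMI of all 6 markers and 44.2% of 5. No Hs578T cell had fewer than 2, which allows a share of up to 0.175%, whereas 55.3% of HCC38 and 31.9% of MDA-MB-436 cells had none.

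Immune and endothelial cells left little trace in the Hs578T barcodes. Of 18 immune markers 8 had no UMI, the 18 summed to 36.4 CPM and CD68, a lysosomal protein that tumour cells also make, gave 32.1 CPM of this. Of 12 endothelial markers 4 had none and the sum was 5.24 CPM. The oestrogen receptor gene ESR1, looked up after its values were seen, was at 0.0555 CPM in Hs578T cells, against 23.3 CPM in BT-474. KRT14 and KRT17 stood on the marker list of HCC38 and yet were highest in Hs578T cells, and the other 4 HCC38 markers summed to 1.58 CPM there.

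Genes of matrix and fibroblasts were frequent among those that set Hs578T apart. With a floor of 50 CPM in Hs578T cells, 38 of 3251 genes (1.17%) stood at least 8-fold above the next line on the scale of CPM + 1. The same rule gave 30 genes in HCC38, 8 in MDA-MB-436, 10 in MDA-MB-231, 23 in MDA-MB-453 and 21 in BT-474. At 2-fold the Hs578T count was 171, at 16-fold 20 and at 32-fold 6. Of the 38 genes, 36 code for protein, and 26 belong to one of the lists described further on. The lists of collagens, collagen processing, other matrix and fibroblast surface genes hold 16 of the 38 (42.1%), against 58 of all 3251 genes tested (1.78%). These lists were chosen with these results known. THY1, POSTN and COL3A1, markers on which the name of the line rests, are counted among the 16. The larger share is therefore partly fixed by these choices and is a description only. Just under the limit were FGF5, a growth factor (7.91-fold), COL4A1 of basement membrane (7.499-fold) and SPARC, a collagen-binding matrix protein (7.07-fold).

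THY1 led this list at 51.4-fold above HCC38. The plain ratio of its CPM was 54.8, with a counting interval of 51.9 to 57.8. POSTN, the matricellular protein periostin, followed with 1379 CPM in Hs578T cells, against 29.1 CPM in HCC38 and 24.2 CPM in MDA-MB-436 (45.8-fold). COX7A1, a muscle-type subunit of cytochrome oxidase, had 128 CPM, against 1.99 CPM in HCC38 and 1.68 CPM in MDA-MB-436. For each of these 3 genes both capture mates were low and the lines of the other capture lower still. SULF1, an enzyme that trims sulfate from heparan chains, had 116 CPM, against at most 2.09 CPM elsewhere. LUM, the collagen-binding proteoglycan lumican, had 129 CPM, against 3.00 CPM in HCC38. ITGA11, a collagen receptor subunit of fibroblasts, had 115 CPM, against 2.77 CPM in HCC38. CXCL12, a chemokine of stromal cells, had 115 CPM, against 3.02 CPM in HCC38 and 2.63 CPM in BT-474.

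**Figure D1:**
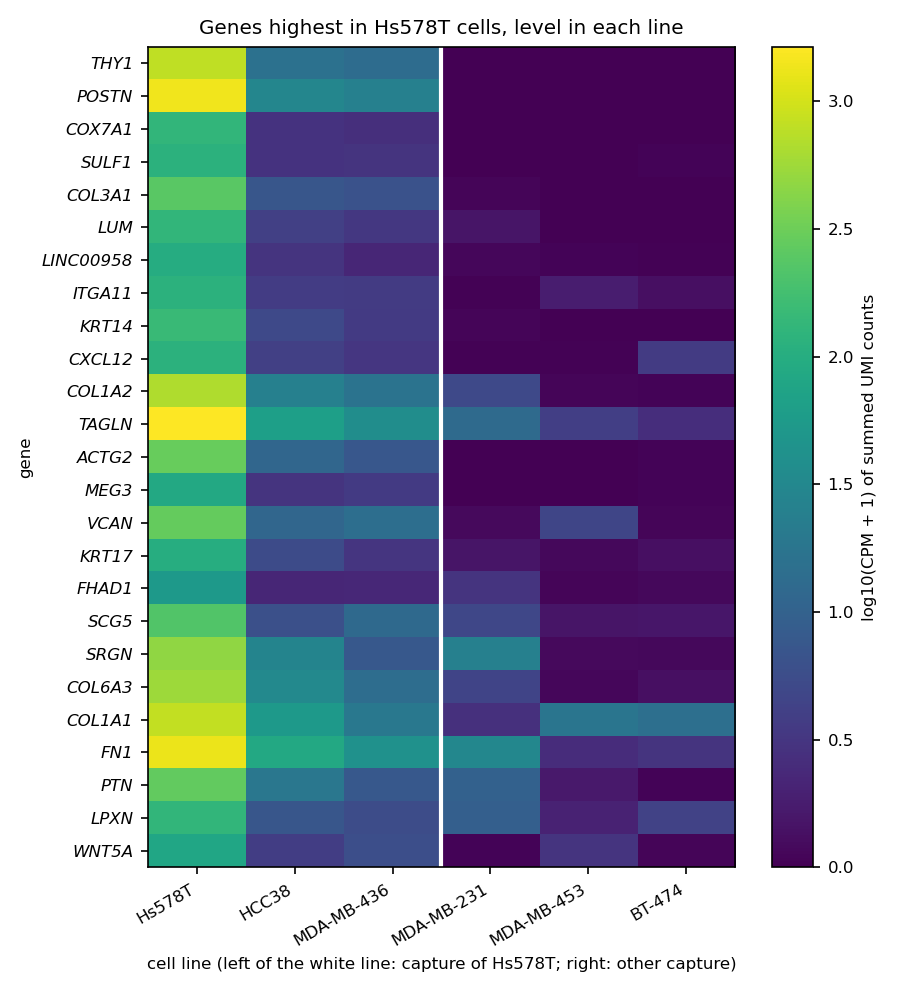
Level of the 25 genes with the largest ratio to the next line (rows) in Hs578T cells and the other 5 lines (columns), as log10(CPM + 1) of summed UMI counts; the white line parts the captures. Hs578T is the brightest column in every row, the 2 lines of its own capture are dim but visible, as for POSTN (1379 CPM in Hs578T, 29.1 and 24.2 CPM in HCC38 and MDA-MB-436), and most genes are dark in the other capture.

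For 35 of the 38 genes the next line was a capture mate, HCC38 or MDA-MB-436. The higher of the mates stood at 1.56% to 11.8% of the Hs578T level (median 5.51%), and 16 of the 38 genes were at 1 CPM or less in all 3 lines of the other capture. In the other direction, genes were taken with at least 100 CPM in a capture mate, at most 10% of that level in the other mate and in Hs578T, and at most 1 CPM in the other capture. The 4 such genes of HCC38 were seen in Hs578T cells at a median of 0.972% of their HCC38 level, and the 4 of MDA-MB-436 at a median of 3.42% of theirs, values that the rule itself holds under 10%. The part of free RNA and of mixed droplets in these low values was not tested. THY1 moved with the barcode filter: its log2 ratio to the next line was 5.68, against 4.94 with all deposited barcodes and 6.47 with at least 95% oligo purity (414 Hs578T cells).

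**Figure D2:**
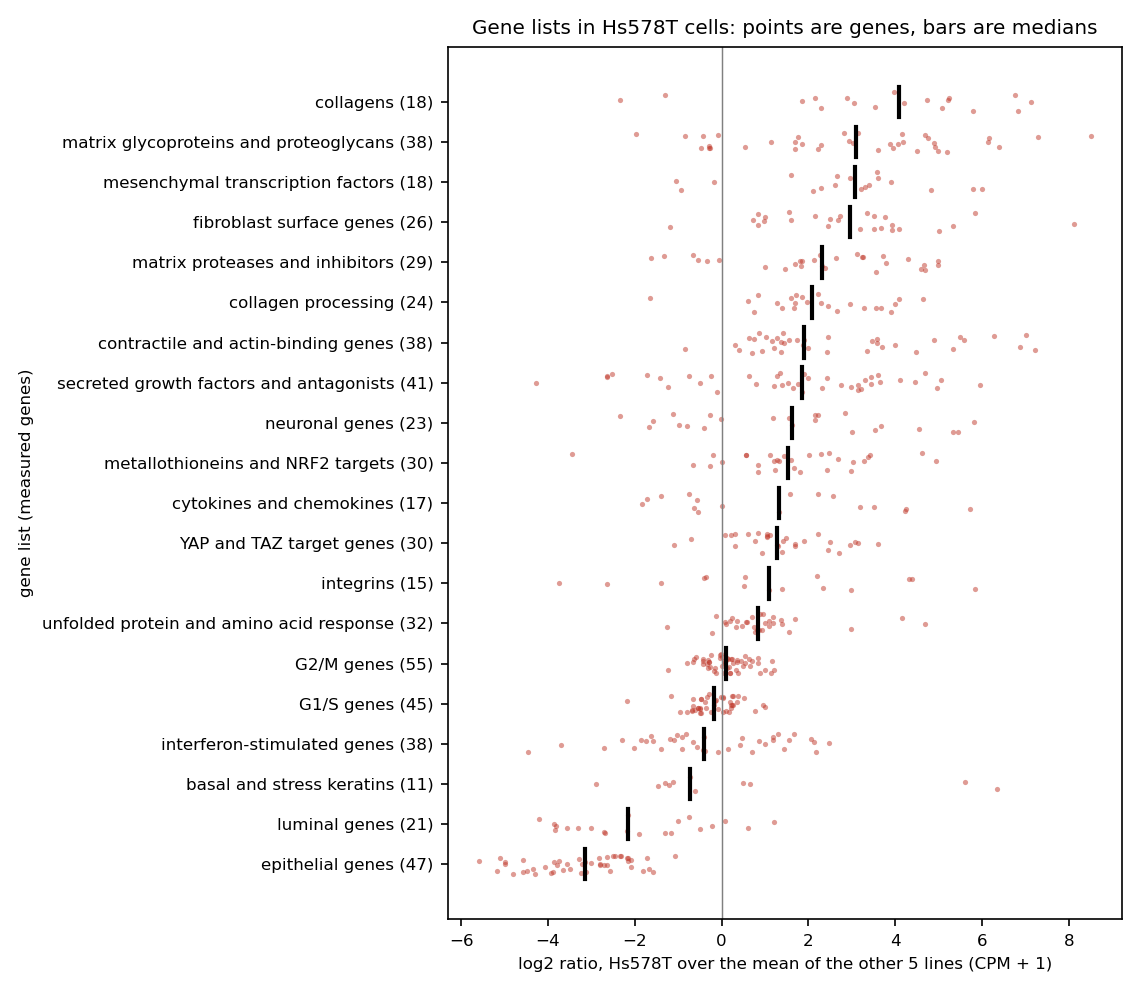
Log2 ratio of each measured gene (points) in Hs578T cells over the mean of the other 5 lines, on the scale of CPM + 1, by gene list, with the number of measured genes in brackets and the median as a black bar. Medians run from 4.08 for collagens to -3.14 for epithelial genes, and the cell cycle lists lie near 0.

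Apart from the markers of the line itself, collagen genes had the highest median of all lists against the mean of the other lines, the mean being taken over log2(CPM + 1). Of 26 listed collagen genes 18 were measured (at least 10 CPM in some line). Of these 18, 16 were 2-fold higher in Hs578T cells and 2 were 2-fold lower, and their median log2 ratio was 4.08. Here and in the lists below, a gene can pass this floor through Hs578T cells alone, as COL3A1 and COL5A3 did. With no floor on the level the collagen median was lower, as given further on. Over all 10920 measured genes 14.3% were 2-fold higher, 12.6% 2-fold lower, 15.8% highest and 17.2% lowest in Hs578T of the 6 lines, and the median was -0.02. COL1A1 and COL1A2, the chains of type I collagen, had 833 and 670.5 CPM in Hs578T cells, against 52.7 and 24.0 CPM in HCC38, the next line for each. COL3A1, the chain of type III collagen, had 247 CPM, against 6.26 CPM in HCC38. COL6A3, a chain of the beaded filaments around cells, had 547 CPM, against 31.4 CPM in HCC38. The exceptions were the basement membrane chains COL4A5 (0.527 CPM in Hs578T, 17.1 CPM in HCC38) and COL4A6 (0.139 CPM in Hs578T, 10.4 CPM in HCC38).

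Enzymes that fold, trim and cross-link collagen followed the collagens at smaller ratios. Of 24 measured, 20 were 2-fold higher in Hs578T cells, 1 was lower and the median log2 ratio was 2.09. LOX, the lysyl oxidase that starts cross-links, had 130.0 CPM in Hs578T cells, against 26.6 CPM in MDA-MB-231. Its relatives LOXL2 and LOXL3 had 196 and 38.6 CPM, against 70.3 CPM in MDA-MB-231 and 3.48 CPM in HCC38 as the next levels. ADAMTS2, which cuts the amino-terminal propeptide off collagen, had 24.8 CPM, against 2.44 CPM in MDA-MB-436. The prolyl hydroxylase subunits P4HB and P4HA1 differed little, at 1.67-fold and 1.52-fold the mean of the other lines. LOXL4 alone was 2-fold lower, at 0.0694 CPM in Hs578T cells, against 19.6 CPM in MDA-MB-231.

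Other matrix genes were higher as well. Of 38 measured glycoprotein and proteoglycan genes 29 were 2-fold higher in Hs578T cells, 1 was lower, 24 were highest of the 6 lines, and the median log2 ratio was 3.09. FN1, fibronectin, had 1309 CPM in Hs578T cells, against 85.0 CPM in HCC38, 41.8 CPM in MDA-MB-436 and 30.1 CPM in MDA-MB-231. SPARC had 698 CPM, against 97.9 CPM in HCC38. VCAN, the large proteoglycan versican, had 286 CPM, against 13.4 CPM in MDA-MB-436. Fibronectin was thus the only one of these 3 with more than 1 CPM in every other line. The single gene 2-fold lower was MGP, an inhibitor of calcification, with 20.9 CPM in Hs578T cells, against 1421 CPM in HCC38 and 320 CPM in BT-474.

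Surface genes of fibroblasts and the integrins were higher in part. Of 26 measured fibroblast surface genes 20 were 2-fold higher, 1 was lower and 17 were highest in Hs578T cells (median log2 ratio 2.95). Summed over this list, MDA-MB-231 had more, with 3108 CPM, against 2934 CPM in Hs578T cells. The growth factor receptor PDGFRA had 39.6 CPM in Hs578T cells, against 1.02 CPM in HCC38, and its relative PDGFRB had 19.4 CPM, against 1.39 CPM in MDA-MB-231. CDH2, the N-cadherin of mesenchymal and nerve cells, had 288 CPM, against 61.6 CPM in MDA-MB-436. DPP4, a surface peptidase of some fibroblasts, was the gene 2-fold lower, at 0.819 CPM in Hs578T cells, against 32.4 CPM in HCC38. Of 15 measured integrin genes 8 were 2-fold higher and 3 lower. ITGA5, the fibronectin receptor subunit, had 149 CPM in Hs578T cells, against 23.2 CPM in MDA-MB-436. The epithelial subunit ITGB4 had 0.277 CPM, against 52.8 CPM in MDA-MB-231, and ITGA6 had 8.74 CPM, against 245 CPM in MDA-MB-231.

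Smooth muscle genes were higher in Hs578T cells almost throughout. Of 38 measured contractile and actin-binding genes 30 were 2-fold higher in Hs578T cells, none was 2-fold lower, 26 were highest of the 6 lines, and the median log2 ratio was 1.89. TAGLN, the actin-bundling protein transgelin, had 1633 CPM in Hs578T cells, against 63.8 CPM in HCC38, 36.6 CPM in MDA-MB-436 and 11.98 CPM or less in the other capture. ACTA2, the smooth muscle actin that marks myofibroblasts, had 376.5 CPM, against 60.2 CPM in HCC38. ACTG2, the enteric smooth muscle actin, had 291 CPM, against 10.6 CPM in HCC38, with the reservation that reads of the near-identical actins may have been split between them. TPM2, a tropomyosin, had 2145 CPM, against 539.7 CPM in HCC38. Genes of general actin use stayed near the other lines, as FLNA at 1.23-fold their mean, and TPM3 was lower than in every other line, with 509.6 CPM in Hs578T cells, against 782 to 1037 CPM.

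Transcription factors of mesenchyme were 2-fold higher for 15 of 18 measured genes, and 1 was 2-fold lower (median log2 ratio 3.08). FOXC2, a forkhead factor of mesenchyme, had 122 CPM in Hs578T cells, against 10.7 CPM in MDA-MB-436. SNAI2, a repressor of E-cadherin, had 141 CPM, against 25.5 CPM in MDA-MB-231. ZEB2, of the same class, was not particular to the line, with 54.9 CPM in Hs578T cells and 46.7 CPM in MDA-MB-436. SOX9, a factor of cartilage and of mammary progenitors, was the member 2-fold lower, at 17.3 CPM in Hs578T cells, against 144 CPM in HCC38.

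Epithelial genes were low without exception in this list. All 47 measured epithelial genes were 2-fold lower in Hs578T cells than the mean of the other lines (median log2 ratio -3.14), and 42 were at the lowest level of the 6 lines. Several of the 42 were close to MDA-MB-436 at very low levels, as GRHL2 (0.125 and 0.175 CPM) and RAB25 (0.541 and 0.686 CPM). Summed over the list, Hs578T had 423 CPM and MDA-MB-436 1080 CPM, against 3175 to 10806 CPM in the other 4 lines. The low level was thus partly shared with MDA-MB-436, and the part of free RNA in it was not tested. KRT19, a simple epithelial keratin, had 9.85 CPM in Hs578T cells and 11.7 CPM in MDA-MB-436, against 536 to 2547 CPM in the other 4 lines. AGR2, a secretory pathway protein of glandular cells, had no UMI in Hs578T cells, which allows at most 0.0416 CPM, against 1036 CPM in MDA-MB-453. The adhesion genes CDH1 and EPCAM, added after their values were seen, had 0.555 and 3.50 CPM in Hs578T cells, and the nearest line was MDA-MB-436, with 0.753 and 9.10 CPM. Of 21 measured luminal genes 1 was 2-fold higher and 15 were 2-fold lower (median log2 ratio -2.15), but against the capture mates alone the median of this list was 0. The gene 2-fold higher was TFAP2A, a factor of skin and mammary epithelium, with 96.5 CPM in Hs578T cells, 96.3 CPM in HCC38 and 184 CPM in MDA-MB-453.

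Among basal keratins, KRT14 and KRT17 went against the low level of epithelial genes. KRT14, the partner keratin of basal cells, had 149 CPM in Hs578T cells, against 4.16 CPM in HCC38, and KRT17, a keratin of stressed and basal epithelia, had 101 CPM, against 4.46 CPM in HCC38. These are close paralogs, and reads may have been shared between them. Their usual partner KRT5 was nearly absent, at 0.0832 CPM in Hs578T cells, against 11.2 CPM in HCC38. Of the 11 measured genes of this list 2 were 2-fold higher and 5 lower, with a median log2 ratio of -0.74. KRT80 had 1.86 CPM in Hs578T cells, against 53.8 CPM in HCC38, and KRT15 had 3.55 CPM, against 97.2 CPM in HCC38.

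Secreted growth factors and their antagonists were mostly higher in Hs578T cells. Of 41 measured growth factors and antagonists 28 were 2-fold higher in Hs578T cells and 7 lower (median log2 ratio 1.85). INHBA, the subunit of activin A, had 248 CPM in Hs578T cells, against 23.5 CPM in HCC38. WNT5A, a ligand of non-canonical Wnt signalling, had 79.5 CPM, against 4.99 CPM in MDA-MB-436. STC2, the secreted glycoprotein stanniocalcin-2, had 345 CPM, against 53.7 CPM in BT-474. Of the EGF receptor ligands on this list, all but HBEGF were lower than the mean of the other lines. AREG had 2.37 CPM in Hs578T cells, against 469 CPM in MDA-MB-231, and TGFA had 0.18 CPM, against 32.1 CPM in MDA-MB-231. EREG, also named after its values were seen, had 1.54 CPM in Hs578T cells, against 104 CPM in MDA-MB-436. HBEGF, named after its values were seen, was 2-fold higher than the mean of the other lines, at 27.7 CPM in Hs578T cells, against 72.9 CPM in MDA-MB-231 and 1.09 to 10.6 CPM in the other 4.

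Among 17 measured cytokines and chemokines 9 were 2-fold higher and 3 lower, a list whose median (1.32) fell to -0.02 against the capture mates alone and to -0.03 with no floor on the level. CXCL12 led it. CCL26, a chemokine for eosinophils, had 34.1 CPM in Hs578T cells, against 2.69 CPM in MDA-MB-231, and TSLP, an epithelial and stromal cytokine, had 20.8 CPM, against 0.34 CPM or less elsewhere. Matrix proteases and their inhibitors were 2-fold higher for 23 of 29 and lower for 2. ADAMTS5, which cuts aggrecan, had 49.1 CPM in Hs578T cells, against 3.94 CPM in HCC38, and MMP2, a gelatinase of stroma, had 97.4 CPM, against 25.1 CPM in HCC38. TIMP3, a matrix-bound inhibitor, had 572 CPM, against 184 CPM in MDA-MB-231.

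Receptor tyrosine kinases were divided, 10 of 24 being 2-fold higher and 7 lower. AXL, a receptor of mesenchymal tumour cells, was shared with MDA-MB-231, at 250.2 CPM in Hs578T cells and 283 CPM in MDA-MB-231. ERBB3, a receptor of luminal cells, had 0.735 CPM in Hs578T cells, against 95.005 CPM in MDA-MB-453. Genes known from neurons were 2-fold higher for 14 of 23 and lower for 4. SCG5, a chaperone of a prohormone convertase, had 217 CPM, against 11.6 CPM in MDA-MB-436. NEFL, the light chain of neurofilaments, had 93.9 CPM in Hs578T cells, against 19.7 CPM in MDA-MB-436 and 1.37 CPM in HCC38, and no UMI in the other capture.

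Genes of the INK4 locus on chromosome 9 differed in level. CDKN2A, which encodes the inhibitors p16 and p14ARF, had 3.88 CPM in Hs578T cells, against 126 CPM in MDA-MB-436 and 23.2 CPM in MDA-MB-453. This is 3.09% of the MDA-MB-436 level, and the 4 genes of MDA-MB-436 given above were at 0.974% to 4.86%, so the low value cannot be told apart from RNA of that capture mate. Its neighbour CDKN2B, another inhibitor of CDK4 and CDK6, was highest in Hs578T cells, at 9.99 CPM, against 2.29 CPM in MDA-MB-436. MTAP, an enzyme of methionine salvage next to both, had 31.1 CPM in Hs578T cells, against 46.4 CPM in MDA-MB-436 and 0.355 CPM in MDA-MB-231. Of the 32 measured regulators of the cycle 4 were 2-fold higher and 3 lower in Hs578T cells, shares no larger than over all genes.

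Response lists differed in how far they followed the line. Target genes of YAP and TAZ, the Hippo pathway coactivators, were 2-fold higher for 20 of 30, lower for 1 and highest for 9. They were led by CCN2, connective tissue growth factor (236 CPM in Hs578T cells, against 115.5 CPM in MDA-MB-231). The list as a whole was not particular to the line, with summed levels of 2898 CPM in Hs578T cells and 2896 CPM in MDA-MB-231. Metallothioneins and targets of NRF2, the factor of the oxidant response, were 2-fold higher for 21 of 30, lower for 1 and highest for 16. The carbonyl reductase CBR1 had 267 CPM in Hs578T cells, against 155 CPM in MDA-MB-436. AKR1C1 had 344 CPM in Hs578T cells, against 312 CPM in HCC38, and an effect of its close paralogs on this count was not tested. TGF-beta response genes were 2-fold higher for 12 of 26 and lower for 4, and several of these are the matrix and muscle genes already given. Interferon-stimulated genes were 2-fold lower for 13 of 38 and higher for 10, with BST2, an antiviral surface protein, at 1.36 CPM in Hs578T cells, against 374 CPM in MDA-MB-453. Hypoxia genes (7 of 36 higher, 4 lower), heat shock genes (4 of 20 higher, none lower), G1/S genes (1 of 45 higher, 2 lower) and G2/M genes (3 of 55 higher, 1 lower) had medians between -0.18 and 0.10.

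Few genes were far lower in Hs578T than in every other line. With at least 20 CPM in each of the other 5 lines, 9 of 3808 genes (0.236%) were at least 8-fold lower in Hs578T cells than in the lowest of them. The same rule gave 0 genes in HCC38, 4 in MDA-MB-436, 5 in MDA-MB-231, 26 in MDA-MB-453 and 16 in BT-474. PRXL2A, a peroxiredoxin-like protein, had 1.91 CPM in Hs578T cells, against 60.55 CPM or more in every other line (21.1-fold). TPD52, a vesicle protein often raised in breast tumours, had 1.78 CPM, against 51.0 CPM or more. Also among the 9 were TSTD1 (a sulfurtransferase), NMRAL1 (a sensor of NADPH), AFDN (afadin of cell junctions), SVIP (which binds the chaperone VCP), WWC1 (the Hippo scaffold KIBRA) and CYBA (p22phox of NADPH oxidase). With a pseudocount of 5 CPM this count was 2, and against the capture mates alone it was 49.

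Across all 10920 measured genes Hs578T was most like MDA-MB-231, with a Spearman rho of 0.819 over genes, then MDA-MB-436 (0.804), HCC38 (0.764), BT-474 (0.627) and MDA-MB-453 (0.625). By the number of genes at least 8-fold apart, MDA-MB-436 was nearest (470 genes), ahead of MDA-MB-231 (571) and HCC38 (724), so the order of the first 2 depends on the measure. BT-474 and MDA-MB-453, the luminal lines, were 1235 and 1373 genes apart. Genes are not independent replicates, and free RNA is shared within a capture, which these values do not separate.

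Among themselves, Hs578T cells varied in abundant mitochondrial, ribosomal and ferritin genes, and also in smooth muscle genes, endoplasmic reticulum chaperones and G2/M genes. Of 6090 genes with a mean of at least 0.2 UMI in cells thinned to 10000 UMIs, 273 (4.48%) had a variance at least 2-fold their mean, a Fano factor of 2, where sampling alone gives 1. The counts in the other lines were 425 in HCC38, 272 in MDA-MB-436, 243 in MDA-MB-231, 190 in MDA-MB-453 and 196 in BT-474. Ribosomal protein genes gave 55 of the 273 (of 84 tested), mitochondrial genes 10 (of 13), metallothioneins and NRF2 targets 11 (of 25), contractile genes 13 (of 36), unfolded protein genes 10 (of 28), G2/M genes 17 (of 54) and G1/S genes 1 (of 35). The Fano factor tends to grow with the level of a gene, so the excess over sampling per squared mean, (Fano factor - 1) / mean, is given beside it where lines or genes are compared. In the 860 cells with the fewest cell cycle UMIs, 268 genes passed and 244 were shared with the 273. With cells thinned to 5000 UMIs the count was 111.

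**Figure D3:**
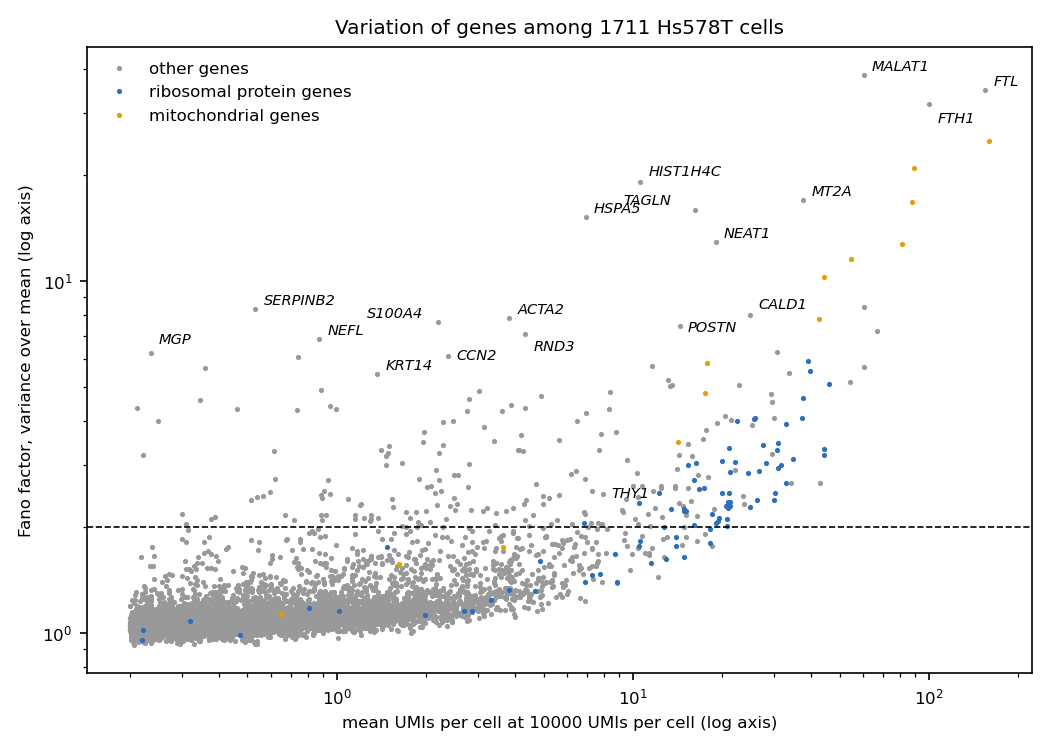
Fano factor (variance over mean) of each tested gene against its mean UMIs per Hs578T cell, in 1711 cells thinned to 10000 UMIs, on log axes; the dashed line marks a factor of 2. MALAT1, FTL and FTH1 lie highest (38.4, 34.8 and 31.9), and at lower means HSPA5 (15.2), TAGLN (15.98), SERPINB2 (8.34) and NEFL (6.85) stand above genes of like level.

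The highest Fano factors belonged in part to abundant RNAs that vary in every line. MALAT1, a nuclear long noncoding RNA, reached 38.4, against 49.8 to 132 in the other lines, and NEAT1, another nuclear RNA, was its nearest gene (r 0.50). The 5 genes of the mitochondrial genome with the largest factors (MT-CO2, MT-ATP6, MT-ND4, MT-CO1 and MT-CO3) lay between 11.6 and 25.03. The ferritin chains FTL and FTH1 reached 34.8 and 31.9 and went together across cells (Pearson r of log(1 + UMIs) 0.53, n = 1711 cells). NQO1, a quinone reductase and NRF2 target, was next for FTL with r of 0.35. Every such correlation is over cells of 1 library thinned to the same depth, and none is tested. MT2A, a metallothionein, reached 17.0 and went with its close relatives MT1E (r 0.47) and MT1X (r 0.45).

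TAGLN had the largest Fano factor of the muscle genes, but relative to its level ACTA2 varied more (excess per squared mean 0.925 for TAGLN and 1.79 for ACTA2). In the thinned cells it had a median of 11 UMIs, 1 UMI at the 10th percentile and 38 at the 90th, with a Fano factor of 15.98. Its 5 closest genes across cells were MYL9, a myosin light chain (r 0.71), ACTA2 (r 0.64), ACTG2 (r 0.64), TPM2 (r 0.56) and POSTN (r 0.55). ACTA2 had 0 UMIs at the 10th percentile, a median of 1 and 11 at the 90th, and 64.1% of cells had a UMI of it, against 20.7% in HCC38 and 7.58% in MDA-MB-436 (80.5% of Hs578T cells before thinning). Summed over the 40 contractile genes, cells had a median of 244 UMIs, with 175 at the 10th and 355 at the 90th percentile. The Fano factor of this sum was 21.4 in Hs578T cells, against 11.6 in HCC38 and 1.89 to 6.92 in the other lines. With means of 256 and 102 UMIs, the excess per squared mean was 0.0797 in Hs578T cells and 0.104 in HCC38, so relative to its level the sum did not vary more in Hs578T cells than in HCC38.

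Contractile and matrix genes only partly went together across Hs578T cells. The contractile sum had r of 0.47 with the sum of matrix glycoproteins, 0.41 with YAP and TAZ targets and 0.18 with collagens (n = 1711 cells). TAGLN itself had r of 0.07 with COL1A1, whereas COL1A1 and COL1A2 had r of 0.46 with each other. COL3A1, whose partners were chosen after their values were seen, had ACTA2 among its 5 nearest genes (r 0.35), so single pairs differed. Collagens and matrix glycoproteins had r of 0.60. Ribosomal protein genes ran the other way, with r of -0.36 to the contractile sum and -0.45 to the collagen sum. All sums come from cells of fixed depth, so a larger share of one group leaves less for the rest. The contractile sum had r of 0.10 with the depth before thinning, -0.15 with the mitochondrial share and 0.03 with oligo purity, and their part in it was not tested.

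**Figure D4:**
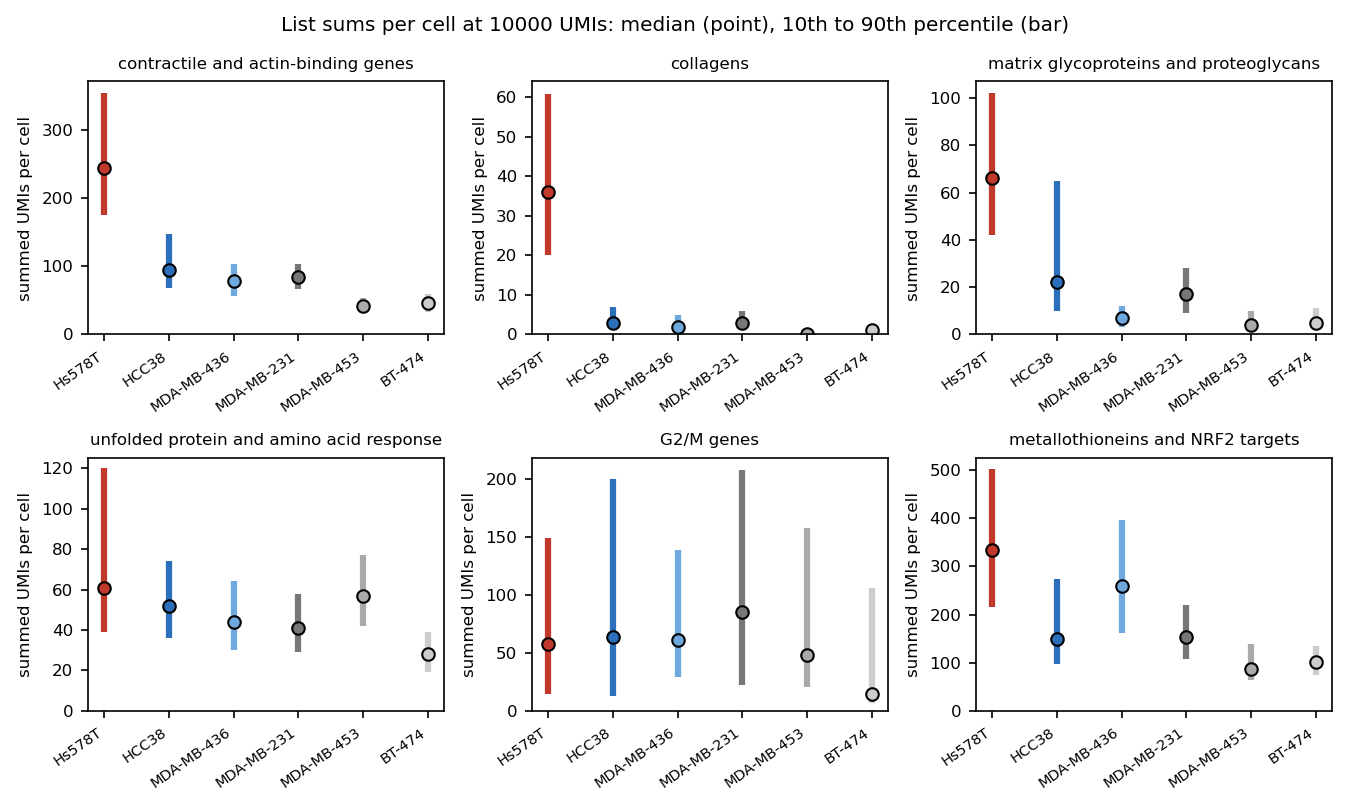
Summed UMIs per cell of 6 gene lists in cells thinned to 10000 UMIs, as the median (point) and the 10th to 90th percentile (bar) in Hs578T and the other 5 lines. The contractile and collagen bars of Hs578T (175 to 355 and 20 to 61 UMIs) lie above those of all other lines, the bar of the unfolded protein list reaches highest in Hs578T (120 UMIs), and the G2/M bars overlap.

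HSPA5, the chaperone BiP of the endoplasmic reticulum, varied more in Hs578T than in any other line. Its level was 645 CPM in Hs578T cells, against 252 to 557 CPM in the other lines. In thinned cells it had a median of 4 UMIs, 1 at the 10th and 15 at the 90th percentile, and 133 in the highest cell. Its Fano factor was 15.2 in Hs578T cells, against 6.18 in MDA-MB-436 and 1.69 to 3.62 in the other lines, and its excess per squared mean was 2.05, against 1.21 and 0.262 to 0.493. The 5 closest genes were HSP90B1, its partner GRP94 (r 0.55), SDF2L1, a cofactor of BiP (r 0.54), CALR, the lectin chaperone calreticulin (r 0.51), MANF, a secreted stress protein (r 0.46), and CRELD2, a disulfide isomerase (r 0.42). Over the whole list of the unfolded protein and amino acid response the Fano factor of the sum was 21.7 in Hs578T cells, against 3.03 to 5.75 in the other lines, and the excess per squared mean 0.286, against 0.0445 to 0.102. The sum had r of -0.30 with the G2/M sum and -0.31 with the G1/S sum. In the 860 cells with the fewest cell cycle UMIs the Fano factor of HSPA5 was 19.3. SLC3A2, an amino acid transporter subunit chosen after its values were seen, had HSPA5 as its nearest gene (r 0.36), then NUPR1 (r 0.34) and TRIB3 (r 0.32), both known targets of ATF4, the factor of the amino acid response.

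Promoters of these chaperones are known to carry the endoplasmic reticulum stress element, bound by NF-Y together with ATF6. They are printed because these genes moved together among Hs578T cells. In the RefSeq table of promoters on GRCh38.p14 (from 250 bases before to 50 after each start), the motif, which is CCAAT, then 9 bases of any kind, then CCACG, was searched on both strands. It was found for 4 of HSPA5 and its 5 partners and in 22 of all 27305 promoters (0.0806%). The shorter form, ATTGG and CCACG with 1 base of any kind between them, was in the promoter of SDF2L1 and in 15 of all (0.0549%), and MANF had no match to either in this window. The stretches below are 5′ to 3′ on the strand of the gene, with the match in capitals, shown as its reverse complement where it lies on the other strand: HSPA5 at chr9:125241364-125241463 (minus strand), HSP90B1 at chr12:103930200-103930349, CRELD2 at chr22:49918504-49918603, CALR at chr19:12938359-12938438 and SDF2L1 at chr22:21642072-21642151 (all plus strand).
HSPA5: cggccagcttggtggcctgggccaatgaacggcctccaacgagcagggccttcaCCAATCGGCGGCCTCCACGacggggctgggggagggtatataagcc
HSP90B1: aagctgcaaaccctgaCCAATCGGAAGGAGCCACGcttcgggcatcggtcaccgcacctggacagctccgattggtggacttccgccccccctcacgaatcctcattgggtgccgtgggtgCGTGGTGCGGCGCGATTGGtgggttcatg
CRELD2: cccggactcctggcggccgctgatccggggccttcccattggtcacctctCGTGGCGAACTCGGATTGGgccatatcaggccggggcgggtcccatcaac
CALR: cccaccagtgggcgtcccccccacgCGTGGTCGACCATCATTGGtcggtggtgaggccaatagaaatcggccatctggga
SDF2L1: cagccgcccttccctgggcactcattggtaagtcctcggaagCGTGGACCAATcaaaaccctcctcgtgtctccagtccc
HSPA5 has its match from 66 to 48 bases before the start, HSP90B1 has a pair of matches in opposite directions, and the match of CALR lies farthest from the start of the 4, at 225 to 207 bases before it. A match of letters is a description only.

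A smaller group of genes followed CCN2 in the Hs578T cells, chosen for description after its values were seen. CCN2 had a UMI in 61.9% of thinned cells and a Fano factor of 6.13. Among the genes nearest to it were CCN1, its matricellular relative (r 0.53), EDN1, the peptide endothelin (r 0.43), the transcript AC092807.3 (r 0.36), and FST, the activin-binding protein follistatin (r 0.33). TAGLN had r of 0.24 with CCN2, less than with its own muscle partners. The letters GGAATG, which TEAD factors bind, occur 3 times in the CCN2 promoter window and in 14.05% of all promoters. Of CCN2 and its 5 partners 3 had a promoter to search, and CCN2 was the only one with these letters in the window. The CArG box, the site of serum response factor, occurs in a pair in the ACTG2 promoter, in 1.29% of all promoters and in 6 of 34 contractile genes with a promoter in the table. Of TAGLN and its 5 partners 4 had a promoter there, and ACTG2 was the only one with this box in the window. The 2 stretches are ACTG2 at chr2:73892868-73892967 (plus strand) and CCN2 at chr6:131951448-131951557 (minus strand), with these motifs in capitals.
ACTG2: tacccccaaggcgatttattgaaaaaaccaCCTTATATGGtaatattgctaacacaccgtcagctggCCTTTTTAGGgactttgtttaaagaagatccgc
CCN2: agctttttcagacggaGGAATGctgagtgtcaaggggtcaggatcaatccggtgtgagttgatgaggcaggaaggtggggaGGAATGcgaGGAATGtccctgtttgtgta
The boxes of ACTG2 begin 110 and 73 bases before the start, and the last of the CCN2 matches ends 90 bases before it.

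**Figure D5:**
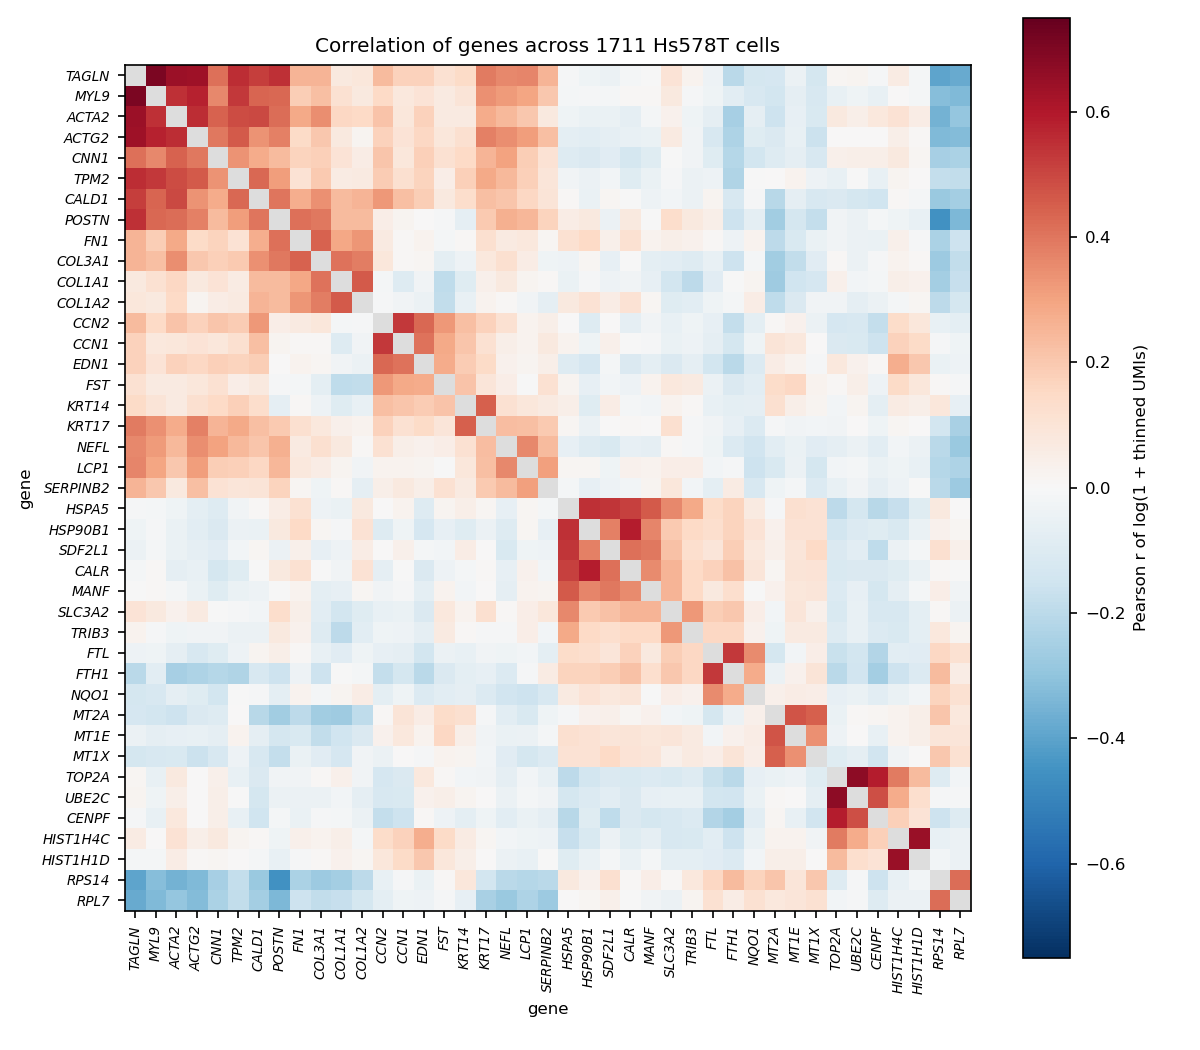
Pearson correlation across 1711 Hs578T cells of log(1 + UMIs) at 10000 UMIs per cell, for genes of the groups described (rows and columns; the diagonal is grey). Blocks of red hold the muscle genes with POSTN (TAGLN with MYL9 0.71), the CCN2 group (CCN2 with CCN1 0.53), the chaperones (HSPA5 with HSP90B1 0.55), the cell cycle genes and the histones, and RPS14 is blue against TAGLN and POSTN (-0.40 and -0.46).

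Some genes had a UMI in under 50% of the thinned Hs578T cells. NEFL had a UMI in 24.4% of thinned cells (37.9% before thinning), against 16.9% in MDA-MB-436 and 1.00% in HCC38, and 26 UMIs in the highest cell. SERPINB2, an inhibitor of the urokinase activator, had a UMI in 17.8% of thinned cells (32.1% before thinning) and up to 50 UMIs, against 22.7% in MDA-MB-436 and 1.76% in HCC38. The gene closest to both across cells was LCP1, the actin bundler L-plastin (r 0.36 with NEFL and 0.31 with SERPINB2). KRT14 had a UMI in 44.2% of thinned cells and in 66.2% before thinning, against 3.22% in HCC38 and 2.00% in MDA-MB-436, and went with KRT17 (r 0.45). MGP had a UMI in 13.8% of thinned Hs578T cells (40.7% before thinning), against 77.8% in HCC38 and 8.49% in MDA-MB-436. Its level in Hs578T cells was 1.47% of that in HCC38, beside 0.779% to 1.17% for the 4 genes of HCC38 given above, and the part of free RNA in it was not tested. THY1, which marks the line, had a UMI in 99.3% of thinned cells, with a Fano factor of 2.48.

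Single genes completed the list of the 25 most variable. RND3, a small GTPase-like protein that opposes contraction, had a median of 3 UMIs and 169 in the highest cell. Its Fano factor was 7.08, and 3.50 without that 1 cell. POSTN had a median of 13 UMIs, with 3 at the 10th and 27 at the 90th percentile. S100A4, a calcium-binding protein of motile cells, had a UMI in 56.7% of cells, and its nearest gene was S100A6 (r 0.29). CALD1, the actin-binding caldesmon, VIM, vimentin, and LGALS1, galectin-1, had factors of 7.99, 7.22 and 8.42. The nearest gene to LGALS1 was MIF, a secreted inflammatory factor (r 0.54), with VIM next (r 0.38), and POSTN ran against it (r -0.38). These partners were chosen after their values were seen, as were those of CCN2, NEFL, SERPINB2, KRT14 and S100A4.

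Cell cycle genes varied among Hs578T cells as well. MKI67, the proliferation marker Ki-67, had a UMI in 64.5% of Hs578T cells at 10000 UMIs (1103 of 1711, exact 95% interval 62.1% to 66.7%), against 63.1% in HCC38, 66.9% in MDA-MB-436, 79.0% in MDA-MB-231, 68.1% in MDA-MB-453 and 25.7% in BT-474. Before thinning the share was 82.9%, and at 5000 UMIs 49.0%. Cells with an MKI67 UMI had a median of 41195 UMIs before thinning and those without 34708, and the part of free RNA in these shares was not tested. Summed G2/M genes had a median of 58 UMIs, with 15 at the 10th and 149 at the 90th percentile. HIST1H4C, a core histone made during DNA replication, had a median of 4 UMIs and 34 at the 90th percentile, with a Fano factor of 19.1, against 8.98 to 14.3 in the other lines, but its excess per squared mean was 1.70, against 1.29 to 3.53. It went with the linker histones HIST1H1D (r 0.65) and HIST1H1E (r 0.62). Reads may have been shared among similar genes of the same histone family, but HIST1H4C and these linker histones belong to different families.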

How the data were processed

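RNA of 6 lines was deposited by the authors as raw UMI counts per gene and barcode, in 1 matrix with 36601 genes and 12 oligos for 17605 barcodes. Per the file headers it was written by Cell Ranger 6.1.2, and per the submitters' processing notes the build was GRCh38 (hg38). How cells were called and libraries aggregated is not given in the sources used here.

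Counts were summed per line over the kept cells (Python 3.11.15, numpy 2.4.6, scipy 1.17.1, pandas 2.3.3) and scaled to a common library total (CPM). Ratios were taken on CPM + 1. Intervals at 95% are exact Poisson, Clopper-Pearson or conditional binomial ones, and a count of 0 has an upper limit of 3 counts. Values per cell come from cells thinned to 10000 UMIs, which left out 22 shallower Hs578T cells and 10 to 81 in the other lines. Doublets were judged by oligo purity alone. Scrublet (scanpy 1.11.5, per capture, expected rate 6%) called 4 of the 1733 Hs578T cells (0.231%) and 0.507% to 1.25% in the other lines. Removing its calls was an alternative, as were TMM scaling (edgeR 4.0.16 in R 4.3.3), other filters, pseudocounts, depths and comparator lines. The computations were tested on simulated data. Figures were drawn with matplotlib 3.10.9.

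The members and the 36 gene lists were chosen with earlier results of these data known. Genes named by rule were the 25 with the largest ratio to the next line, the 15 lowest (9 passed), the 4 highest and 2 lowest of each list, the 25 with the largest Fano factor, the 5 nearest genes of the first 10 of these, the 6 markers of the line, and CDKN2A, CDKN2B, MTAP, NEFL and THY1. Not all of these are printed, some items are not reported here, and genes printed outside this rule were chosen after their values were seen.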

Additional observations from a re-analysis of the deposited data

Results flagged for a closer look

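Oligos assigned to none of the 6 lines gave a few UMIs in the Hs578T cells. CMO311 had 141 UMIs in 135 of the 1733 cells, CMO310 had 24 UMIs in 23 cells and CMO307 had 4 UMIs in 4 cells. They were flagged for a count above 3, the upper limit that a count of 0 allows, which is no threshold of detection. The oligos of the other pool, CMO301, CMO302 and CMO303, had 2, 3 and 2 UMIs, so the count of CMO307 was near theirs. CMO308 had 2 UMIs, and CMO309 and CMO312 had 0. CMO305 had 8322958 UMIs in the same cells.

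The 254 Hs578T barcodes left out for oligo purity alone carried more RNA of the capture mates. The 6 markers of MDA-MB-436 summed to 156 CPM in these barcodes (counting interval 149 to 164), against 59.3 CPM in the cells that were kept. The 4 markers of HCC38 other than KRT14 and KRT17 summed to 10.8 CPM in the left-out barcodes (8.98 to 12.9), against 1.58 CPM in the kept cells. The markers of Hs578T itself summed to 3851 CPM in the left-out barcodes and 4351 CPM in the kept cells, with a median of 37046 and 38173 gene UMIs. The part of mixed droplets and of stray oligo in these values was not tested.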

How the results depend on the processing

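No paired analysis was possible because each line is 1 culture in 1 library. The choice of comparators moved the results most. The comparison with the 3 lines of the other capture was chosen after seeing the data. Against these lines 87 genes were highest and 30 lowest in Hs578T cells, and the medians were 3.86 for mesenchymal factors and 3.81 for matrix glycoproteins. Against the capture mates alone 49 genes were lowest, and the medians were 2.10 for mesenchymal factors, 2.87 for collagens, 1.37 for collagen processing, 2.25 for matrix glycoproteins, 1.85 for fibroblast surface genes and -2.38 for epithelial genes. With a pseudocount of 5 CPM 2 genes were lowest, and the medians were 2.02 for mesenchymal factors, 3.23 for collagens, 2.33 for matrix glycoproteins, 2.11 for fibroblast surface genes and -1.84 for epithelial genes. With no floor on the level the medians were 2.19, 2.60 and 2.04 for mesenchymal factors, collagens and matrix glycoproteins. The median of cytokines and chemokines changed sign, to -0.022 against the capture mates and -0.032 with no floor. Thinned to 5000 UMIs, 111 genes varied and 49.0% of Hs578T cells had an MKI67 UMI. With oligo purity of 95% the MKI67 share was 66.8%. The causes were not tested. In the other settings 29 to 57 genes were highest and 6 to 10 lowest. The list medians stayed near their value in 250 of 280 recomputations, and TMM scaling moved the median of all genes to 0.04. One culture per line and 1 library per capture limit every difference, whatever the depth.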

Other observations

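Several other groups of genes were examined in Hs578T cells. Of 32 measured genes of the unfolded protein and amino acid response 11 were 2-fold higher, 1 was lower and 15 were highest of the 6 lines (median log2 ratio 0.84), beside 14.3%, 12.6% and 15.8% of all measured genes. Cholesterol synthesis genes were 2-fold higher for 6 of 26 and lower for 2, and 12 were highest. MHC class I genes were 2-fold higher for 6 of 16 and lower for none, and genes of ERK feedback and early response were higher for 7 of 32 and lower for 7. Of the marker lists of the other lines, those of BT-474 and MDA-MB-453 had no gene 2-fold higher in Hs578T cells, and those of HCC38, MDA-MB-436 and MDA-MB-231 had 2 each.

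Genes highest in Hs578T cells were unevenly spread over the chromosomes (gene positions on GRCh38 from GENCODE). On chromosome 8 Hs578T was highest for 148 of 401 measured genes (36.9%, median log2 ratio 0.58), and in the window from 20000001 to 30000000 for 34 of 43 (79.1%, median 1.29). On chromosome 3 it was highest for 186 of 617 genes (30.1%), and in the window from 100000001 to 110000000 for 17 of 23. Chromosomes 21 and 22 had 33.0% and 33.2% of their genes highest in Hs578T. Chromosomes 9 and 16 had 30.9% of 440 and 30.4% of 490 genes lowest in Hs578T, beside 17.2% of all, and the window of chromosome 1 from 160000001 to 170000000 had 36 of 58 (62.1%, median -0.70). Windows were chosen for these values, neighbouring genes are not independent, and DNA copy number was not measured here.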
